A study of Mus musculus with 6 samples.

Results

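The AP-1 transcription factors were followed here as 10 genes chosen by symbol: Fos, Fosb, Fosl1, Fosl2, Jun, Junb, Jund, Atf3, Batf and Maff. All 10 were among the 24421 gene rows of the deposited count table and among the 13548 genes with enough counts to be tested. RNA was sequenced from LK cells, the fraction of C57BL/6 bone marrow that lacks lineage markers and carries the c-Kit receptor. The groups were 3 libraries of ASXL1-MT-KI mice, whose knocked-in allele encodes mutant ASXL1, a chromatin protein often mutated in myeloid malignancy, and 3 libraries of wild type littermates, all 8 to 12 weeks old and with no treatment named. The labels name no promoter or Cre for the knock-in, and do not say whether each library was 1 animal or a pool. P-values measure the spread between these libraries.

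AP-1 is not a single protein but a dimer of basic leucine zipper (bZIP) proteins. Jun proteins pair with themselves or with Fos proteins, which cannot pair with themselves, and the dimers bind short DNA sites next to genes of growth, differentiation and inflammation. Fos, Fosb, Junb and Atf3 are immediate early genes: their transcripts appear within minutes of a stimulus, including handling of cells, and decay soon after. ATF3, BATF and MAFF are related bZIP proteins, the last a small MAF protein that has no activation domain of its own. In blood cells AP-1 takes part in monocyte and granulocyte differentiation, and JunB restrains the expansion of myeloid progenitors in mice.

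The libraries held 40462168 to 47579480 gene counts. Asxl1 stood at 320 ± 8.71 CPM (counts per 1000000 counts of a library, scaled by the trimmed mean of M values, TMM) in ASXL1-MT-KI and 170 ± 5.43 CPM in wild type libraries (SD, n = 3 each). Kit, which defines the gate, stood at 383 ± 11.7 CPM in ASXL1-MT-KI and 406 ± 41.0 CPM in wild type libraries (adjusted p = 0.446, edgeR quasi-likelihood test). Of 12 markers of mature lymphoid cells, Cd3g had no count in any library and 5 had enough counts to be tested. In bulk RNA, fewer cells of a type and less RNA per cell cannot be told apart.

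The number 3 library of both genotypes stood apart for several AP-1 genes. Fos was less than 1/2 as abundant there as in numbers 1 and 2, in ASXL1-MT-KI and in wild type alike. Values of every library are therefore given, and for each AP-1 gene the comparison is also given with numbers 1 and 2 only. The rule that chose the AP-1 genes had already named the number 3 libraries as low. Calls and p-values with numbers 1 and 2 only are therefore a description and no independent support. Titles number the libraries 1 to 3 within each genotype, and same-numbered libraries deviated together across genes. ASXL1-MT-KI library 1 also deviated with wild type library 2 (r = 0.179), so the pairing is clearest for number 3. A fit with the number as a block is printed where it changes the call of an AP-1 gene or the count of a gene list.

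Across the family, 4 of 10 genes fell in ASXL1-MT-KI cells: Maff, Junb, Fosl2 and Fosl1. Among all tested genes 7.69% fell and 16.0% passed in either direction, at an adjusted p under 0.05 (edgeR quasi-likelihood test, Benjamini-Hochberg adjustment over all 13548 genes). None of the 10 rose in edgeR, against 8.29% of all tested genes, and 0 were higher at an unadjusted p under 0.05. In DESeq2 4 fell and 0 rose, against 8.63% and 8.98% of all tested genes, and in limma-voom 4 fell and 0 rose, against 7.66% and 8.30%. With the replicate number as a block 5 fell, where 13.8% of all tested genes fell and 30.5% passed in either direction. With numbers 1 and 2 only 6 fell, against 8.21% of tested genes. That fit left out the libraries already named as low when the genes were chosen. Without wild type replicate 1 the falls numbered 2, Junb and Maff, against 4.34% of tested genes, and without wild type replicate 2 they numbered the same, against 6.69%. The median log2 fold change was -0.59 over the 10 genes and 0.00 over all tested genes. Every ASXL1-MT-KI library was below every wild type library for 5 genes, Fosl1, Fosl2, Junb, Jund and Maff, and the opposite held for 0. ASXL1-MT-KI lay wholly below wild type for 17.2% of all tested genes and wholly above for 18.0%. In 7 of 10 genes the ASXL1-MT-KI library was lower in each of the 3 same-numbered pairs, as it was in 28.0% of tested genes.

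**Figure D1:**
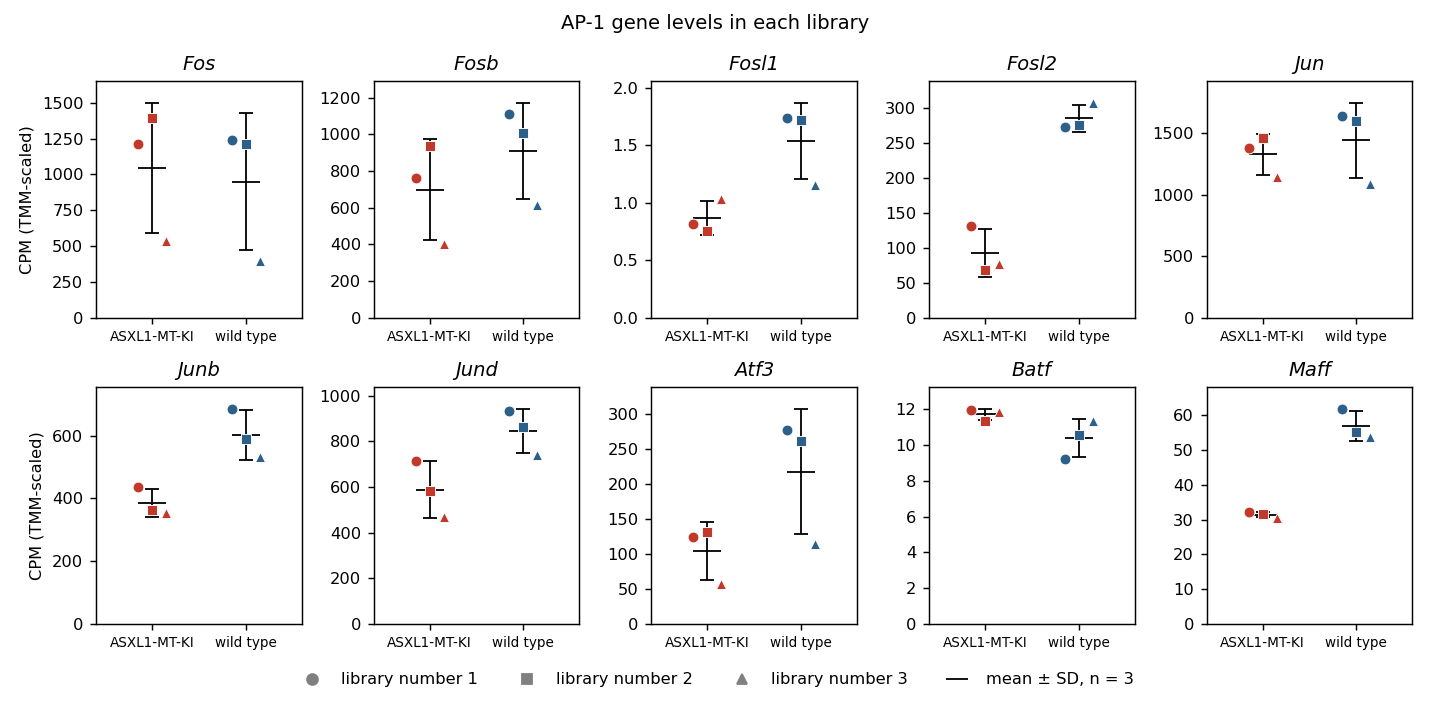
Level of each AP-1 gene in CPM (linear axes from 0) in the 3 ASXL1-MT-KI (red) and 3 wild type (blue) libraries. Symbols mark the library number, and black bars the mean ± SD. The groups are apart for Fosl1, Fosl2, Junb, Jund and Maff. Number 3 is the lowest library of each genotype for Fos, Fosb, Atf3, Jun, Junb, Jund and Maff, by little for Maff.

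Fos, the founding member and the partner of Jun in the classical dimer, lies on chromosome 12 (mm10, 85473890 to 85477273). It was at 1212, 1396 and 534 CPM in ASXL1-MT-KI libraries 1 to 3, against 1237, 1210 and 397 CPM in wild type libraries 1 to 3. The low library of each genotype was number 3, and the groups overlapped. The log2 fold change was 0.14 ± 0.61 (SE; adjusted p = 0.909, edgeR). Its sign turned to -0.13 without ASXL1-MT-KI replicate 2 and to -0.22 without wild type replicate 3. With numbers 1 and 2 only it was 0.09 (adjusted p = 0.369).

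Fosb encodes a close relative of Fos with the same partners (chromosome 7, 19302696 to 19310051). It had 763, 935 and 399 CPM in ASXL1-MT-KI libraries and 1113, 1007 and 615 CPM in wild type libraries. Number 3 was again the lowest of each genotype, and within each number the ASXL1-MT-KI library was the lower. The groups overlapped, and the log2 fold change of -0.38 ± 0.41 did not pass (adjusted p = 0.601, edgeR; 0.119 with numbers 1 and 2 only).

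Fosl2, which encodes FRA2, a Fos protein without the strong activation domain of FOS, showed the largest genotype difference of the 10 genes (chromosome 5, 32135801 to 32157842). It stood at 132, 68.4 and 76.6 CPM in ASXL1-MT-KI libraries, against 272, 276 and 308 CPM in wild type libraries. Every ASXL1-MT-KI library was below 1/2 of the lowest wild type library, and number 3 was not low in wild type, where it was the highest. The fall was 3.09-fold (log2 fold change -1.63 ± 0.28, adjusted p = 0.0203, edgeR). ASXL1-MT-KI library 1 lay far above the other two of its genotype, and without it the adjusted p was 3.1e-06. A block for the replicate number ended the call (adjusted p = 0.0799), as did the use of numbers 1 and 2 alone (adjusted p = 0.196), and so did leaving out ASXL1-MT-KI replicate 3 or any wild type replicate (adjusted p 0.0539 to 0.0831).

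Fosl1, which encodes FRA1, had the lowest level of the 10 genes (chromosome 19, 5447547 to 5455946). It had 39, 34 and 43 counts in ASXL1-MT-KI libraries and 80, 79 and 47 counts in wild type libraries. The groups did not overlap in CPM, at 0.752 to 1.04 in ASXL1-MT-KI and 1.16 to 1.74 in wild type, though the number 3 libraries came within 0.11 of each other on the log2 scale. The log2 fold change was -0.84 ± 0.24 (adjusted p = 0.0415, edgeR), and adjusted p was 0.0515 in DESeq2, 0.0501 in limma-voom and 0.0523 with total counts. Leaving out ASXL1-MT-KI replicate 1 or 2, or wild type replicate 1 or 2, also ended the call (adjusted p 0.114 to 0.150). With numbers 1 and 2 only the adjusted p was 0.00845. Its exons share 1163 of 2033 bases with those of Ccdc85b on the opposite strand. Reads there cannot be told apart without strand, and Ccdc85b itself stood at 21.2 ± 0.563 CPM in ASXL1-MT-KI and 21.5 ± 0.605 CPM in wild type libraries.

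Among the Jun genes, Junb fell, and Jund and Jun did not pass. Jun, whose protein forms the most active dimers, lies on chromosome 4 (95049034 to 95052222). It had 1380, 1463 and 1145 CPM in ASXL1-MT-KI libraries and 1640, 1603 and 1092 CPM in wild type libraries. Number 3 was the lowest of each genotype, and the groups overlapped. The log2 fold change was -0.12 ± 0.18 (adjusted p = 0.712, edgeR), and -0.19 with numbers 1 and 2 only, where it passed (adjusted p = 0.0257). Its antisense gene Junos shares 232 of its 3189 exon bases.

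Junb encodes a Jun protein that is a weaker activator than JUN and can oppose it (chromosome 8, 84974484 to 84978718). It stood at 436, 364 and 352 CPM in ASXL1-MT-KI libraries, against 686, 591 and 531 CPM in wild type libraries. The groups were clearly apart, and the 3 same-numbered differences were alike, at -0.66, -0.70 and -0.59 on the log2 scale. The fall was 1.57-fold (log2 fold change -0.65 ± 0.11, adjusted p = 0.00810, edgeR) and passed in each alternative run, with adjusted p up to 0.0334 on leaving out 1 library and 0.0216 with numbers 1 and 2 only. The 173 exon bases shared with Prdx2 on the opposite strand are a small part of its 2301.

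Jund encodes the Jun protein that is expressed most steadily in resting cells (chromosome 8, 70698949 to 70700616). It had 714, 584 and 466 CPM in ASXL1-MT-KI libraries and 934, 863 and 741 CPM in wild type libraries. No ASXL1-MT-KI library reached the lowest wild type library, and the log2 fold change of -0.52 ± 0.17 did not pass (adjusted p = 0.0942, edgeR). It passed once the replicate number was blocked (adjusted p = 5.3e-06), in libraries 1 and 2 alone (0.0355), in DESeq2 (0.0472), in limma-voom (0.0339), with no robust estimation (0.0388) and on leaving out ASXL1-MT-KI replicate 1 (0.0213). Gm11175 overlaps 877 of its 1668 exon bases on the opposite strand.

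Atf3, a stress-induced bZIP gene whose protein represses many inflammatory genes, was low both in number 3 of each genotype and, number by number, in ASXL1-MT-KI (chromosome 1, 191170296 to 191218039). It stood at 125, 132 and 56.8 CPM in ASXL1-MT-KI libraries, against 277, 262 and 114 CPM in wild type libraries. The groups overlapped, since wild type number 3 lay below the ASXL1-MT-KI libraries 1 and 2. Between same-numbered libraries, however, Atf3 was lower in ASXL1-MT-KI by -1.15, -0.99 and -1.00 on the log2 scale. Without a block the log2 fold change was -1.06 ± 0.51 (adjusted p = 0.248, edgeR). With the replicate number as a block it was -1.05 ± 0.044 (adjusted p = 2.0e-10), and with numbers 1 and 2 only -1.07 (adjusted p = 2.3e-06). The latter fit left out the libraries that the rule for choosing the genes had named as low, so its p-value is no independent support. What the numbers stand for, such as a litter or a day of sorting, is not in the labels.

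Maff encodes a small MAF protein (chromosome 15, 79346621 to 79359076). It had 32.1, 31.7 and 30.6 CPM in ASXL1-MT-KI libraries and 61.9, 55.2 and 53.7 CPM in wild type libraries. The libraries of a genotype were close together, number 3 included. The fall was 1.81-fold (log2 fold change -0.86 ± 0.067, adjusted p = 9.2e-05, edgeR), with adjusted p up to 0.000902 on leaving out 1 library and 5.6e-05 with numbers 1 and 2 only. Batf, which encodes a bZIP protein that pairs with JUN proteins and is best known from lymphocytes, lies on chromosome 12 (85686669 to 85709087). It had 11.9, 11.4 and 11.9 CPM in ASXL1-MT-KI libraries and 9.24, 10.6 and 11.4 CPM in wild type libraries. Its log2 fold change was 0.17 ± 0.097 (adjusted p = 0.260, edgeR; 0.162 with numbers 1 and 2 only).

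**Figure D2:**
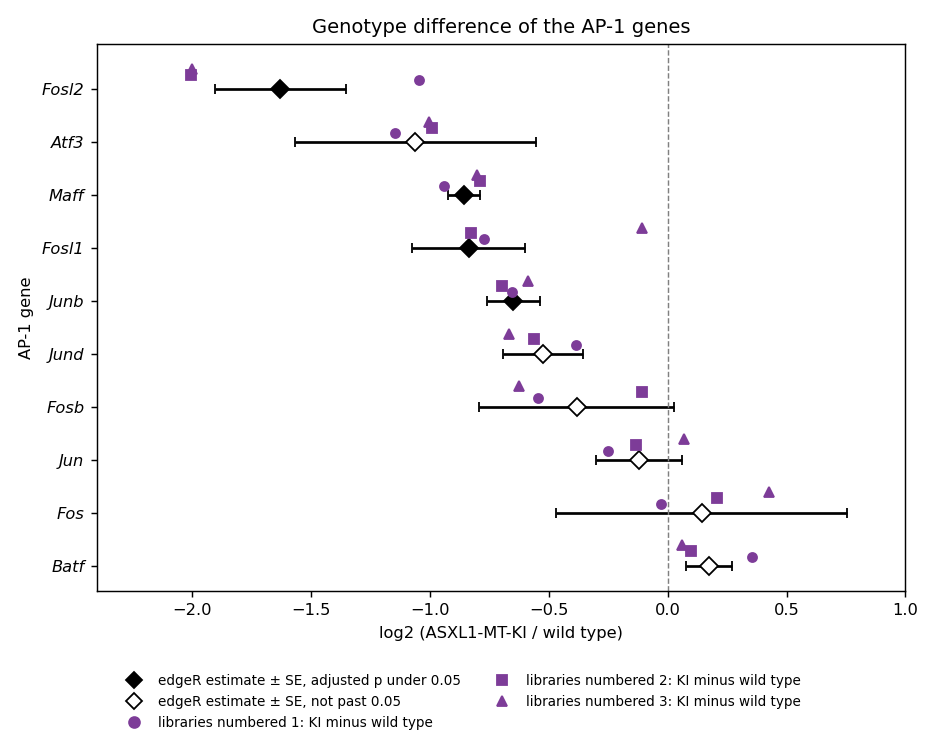
Log2 ratio of ASXL1-MT-KI to wild type for each AP-1 gene. Diamonds are edgeR estimates ± SE, filled where the adjusted p is under 0.05, and purple symbols are the differences between same-numbered libraries. For Atf3 the 3 paired differences lie between -1.15 and -0.99 while the SE without a block is 0.51.

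Fos, Jdp2 and Batf follow each other on chromosome 12, Jdp2 (85599027 to 85639878) encoding a bZIP repressor that pairs with Jun proteins. Jdp2, chosen for its position after its values were seen, stood at 26.6 ± 3.03 CPM in ASXL1-MT-KI and 31.0 ± 0.756 CPM in wild type libraries (log2 fold change -0.22, adjusted p = 0.116, edgeR). It passed with the replicate number as a block (adjusted p = 0.0332), with numbers 1 and 2 only (0.0187) and on leaving out ASXL1-MT-KI replicate 3 (0.0332).

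Number 3 was lower than the mean of numbers 1 and 2, on the log2 scale, for 8 of 10 genes in ASXL1-MT-KI and 8 of 10 in wild type, against 50.2% and 48.1% of all tested genes. The shift of Fos was -1.28 in ASXL1-MT-KI and -1.62 in wild type, that of Atf3 -1.17 and -1.23, and that of Fosb -1.08 and -0.78, in the same order. Jun shifted by -0.31 in ASXL1-MT-KI and -0.57 in wild type. Maff shifted by only -0.06 and -0.12, and Batf by 0.03 and 0.19. For comparison, 90% of tested genes lay between -0.27 and 0.34 in ASXL1-MT-KI and between -0.30 and 0.43 in wild type. In both genotypes 6 of the 13548 tested genes were lower by at least 1 on this scale: Fos, Atf3, the phosphatase gene Dusp1, which is itself an immediate early gene, and the histone genes Hist1h2ad, Hist1h2ah and Hist1h2an, all picked by this threshold after their values were seen. These shifts are a description, with no test. The low number 3 libraries were already named in the rule that chose the 10 genes. The counts of 8 of 10 are therefore no independent finding beside the shares of all tested genes.

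**Figure D3:**
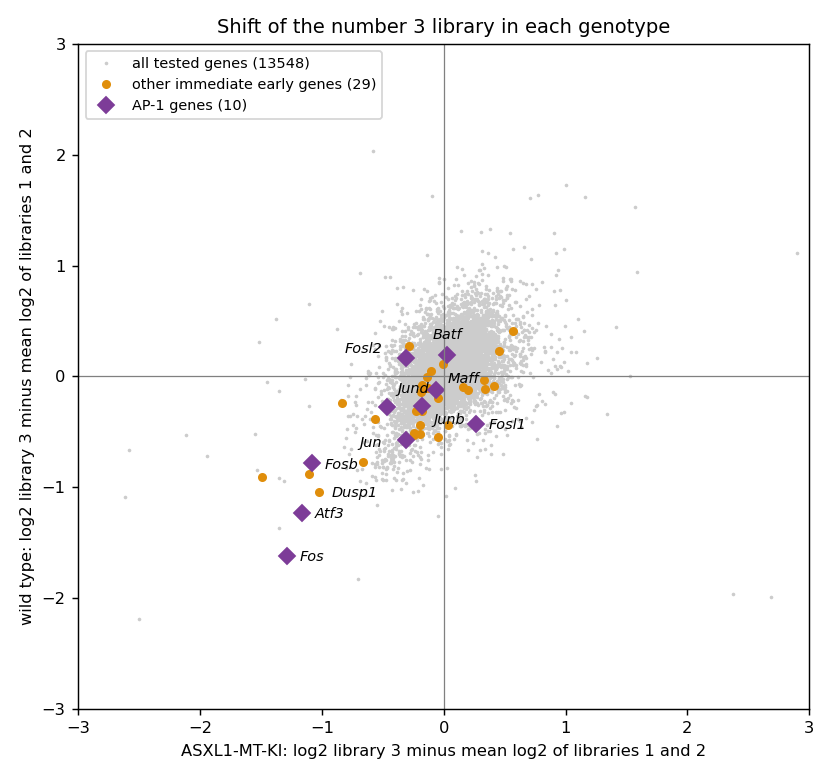
Shift of the number 3 library against the mean log2 CPM of numbers 1 and 2, in ASXL1-MT-KI (horizontal axis) and wild type (vertical axis). Grey points are all tested genes, orange points other immediate early genes and purple diamonds the AP-1 genes. Fos, Atf3 and Fosb lie at the lower left, away from Maff and Batf near the centre.

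Other lists were also shifted in number 3. Of 13 genes of G2 and M phase, 13 were lower in number 3 of ASXL1-MT-KI (median -0.19) and 13 in number 3 of wild type (median -0.23). Of 19 tested haem and red cell membrane markers, 17 were lower in number 3 of ASXL1-MT-KI (median -0.29) and 18 in number 3 of wild type (median -0.41). Mast cell, basophil and eosinophil markers were higher in number 3 of ASXL1-MT-KI, by a median of 0.80 over 10 tested genes, and by 0.08 in wild type. Of 12 heat shock genes, a sign of stressed cells, 5 were lower in number 3 of ASXL1-MT-KI (median 0.02) and 12 in number 3 of wild type (median -0.25). The part of these in the AP-1 shifts was not tested.

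The promoters of Fos and Atf3, which shared the low level in number 3, are shown beside those of Junb and Maff, which fell in ASXL1-MT-KI and moved less with the number. RefSeq windows on GRCm38.p6 matched 9 of 10 genes, all but Fosl1. Each sequence is the 250 bases before a RefSeq start, read 5′ to 3′ on the gene's strand. Capitals mark matches on either strand to the CRE core TGACG, the full CRE TGACGTCA, the AP-1 site TGANTCA, the Jun promoter site TGACATCA, TATAAA, the CArG box or the NF-kB site. The core lies within the full CRE. For Maff, with 3 windows, the only one that holds a full CRE is shown, so this match was fixed by the choice of window. It lies inside the annotated gene, and the window that ends just before the annotated start held no match.
Fos, chr12:85473640-85473889, + strand: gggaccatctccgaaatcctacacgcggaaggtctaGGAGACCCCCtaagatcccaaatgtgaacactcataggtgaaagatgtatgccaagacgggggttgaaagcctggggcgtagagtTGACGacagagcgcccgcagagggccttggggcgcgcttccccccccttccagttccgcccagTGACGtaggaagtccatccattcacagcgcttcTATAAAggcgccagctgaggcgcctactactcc
Atf3, chr1:191183334-191183583, - strand: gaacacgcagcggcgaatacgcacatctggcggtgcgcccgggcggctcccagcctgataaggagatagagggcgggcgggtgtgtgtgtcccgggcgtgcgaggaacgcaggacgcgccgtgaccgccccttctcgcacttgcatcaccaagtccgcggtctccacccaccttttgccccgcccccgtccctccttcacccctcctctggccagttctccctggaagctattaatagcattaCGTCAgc
Junb, chr8:84978749-84978998, - strand: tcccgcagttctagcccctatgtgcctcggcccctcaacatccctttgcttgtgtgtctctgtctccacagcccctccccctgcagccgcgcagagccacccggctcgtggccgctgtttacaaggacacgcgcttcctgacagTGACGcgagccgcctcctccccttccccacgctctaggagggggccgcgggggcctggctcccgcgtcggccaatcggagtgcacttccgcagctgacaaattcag
Maff, chr15:79347270-79347519, + strand: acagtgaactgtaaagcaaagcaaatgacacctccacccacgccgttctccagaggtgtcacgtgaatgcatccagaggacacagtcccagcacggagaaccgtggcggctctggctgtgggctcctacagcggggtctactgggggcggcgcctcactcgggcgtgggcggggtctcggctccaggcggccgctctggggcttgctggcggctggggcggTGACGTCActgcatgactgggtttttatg

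The Fos window held TGACG at -129 and -66, TATAAA at -33 and an NF-kB match at -214, counted in bases before the start to the left end of each match. The Atf3 window held the core as its reverse complement, CGTCA, at -7, 5′ of a start inside the annotated gene. The Junb window held TGACG at -106. The Maff window, chosen for this match, held TGACGTCA at -29, so the share of all windows with TGACGTCA below is no measure of it. Among all 32851 promoter windows of the same length, 17.8% held TGACG, 1.55% TGACGTCA, 6.75% TGANTCA, 2.93% TGACATCA, 12.4% TATAAA, 1.47% a CArG box and 7.25% an NF-kB match. Neither TGANTCA nor a CArG box was found in any of the windows of the 9 genes. Bases further upstream were not searched, so a site there, in Fos or any other gene, would have been missed. The Jund window (chromosome 8, 70697489 to 70697738) also ended before the annotated start of the gene at 70698949. A match is a description of these letters and not a site of binding.

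Levels of different genes can be set side by side only per length. In CPM per kilobase of the longest transcript, the order in ASXL1-MT-KI libraries was Fos (497 ± 216), Jun (417 ± 51.7), Jund (353 ± 74.3), Junb (212 ± 24.9), Fosb (185 ± 72.4), Atf3 (52.6 ± 20.8), Maff (16.1 ± 0.402), Fosl2 (14.1 ± 5.26), Batf (12.3 ± 0.337) and Fosl1 (0.465 ± 0.0804). In wild type libraries it was Jund (507 ± 58.5), Jun (453 ± 96.1), Fos (450 ± 226), Junb (333 ± 43.4), Fosb (241 ± 69.3), Atf3 (110 ± 45.3), Fosl2 (43.7 ± 2.98), Maff (29.1 ± 2.23), Batf (10.9 ± 1.12) and Fosl1 (0.827 ± 0.178; SD, n = 3 throughout). Neighbours in these orders overlapped among Fos, Jun and Jund, between Junb and Fosb, and, in ASXL1-MT-KI, among Maff, Fosl2 and Batf. In wild type Fos also overlapped with Junb. The other neighbours did not overlap.

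The summed level of the 10 genes was 1990, 2025 and 1261 CPM per kilobase in ASXL1-MT-KI libraries 1 to 3, against 2558, 2401 and 1576 in wild type libraries 1 to 3. It was lower in ASXL1-MT-KI within each number, and lowest in number 3 of each genotype. Fos made up 27.2 ± 6.48% of it in ASXL1-MT-KI and 19.6 ± 6.63% in wild type libraries (SD, n = 3 each), with the smallest share in number 3. Jun made up 24.3 ± 3.65% in ASXL1-MT-KI and 20.9 ± 0.814% in wild type. Junb made up 12.5 ± 2.77% in ASXL1-MT-KI and 15.7 ± 2.61% in wild type, and Fosl2 0.819 ± 0.265% in ASXL1-MT-KI and 2.12 ± 0.750% in wild type. These shares depend on transcript length, and with no length scaling Fos made up 23.5% in ASXL1-MT-KI and 16.9% in wild type.

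**Figure D4:**
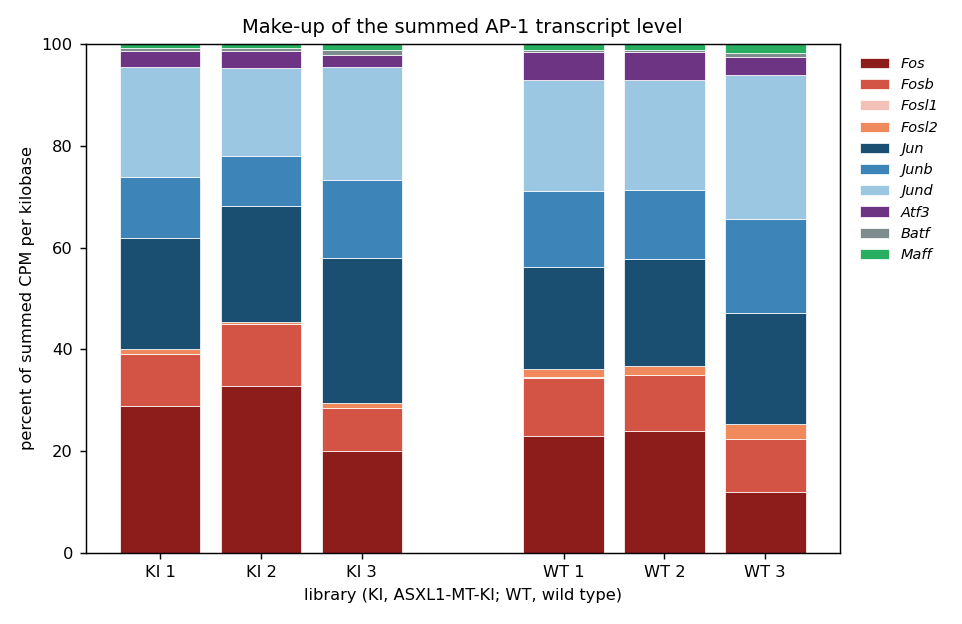
Percent of the summed AP-1 level (CPM per kilobase of the longest transcript) held by each gene in each library, ASXL1-MT-KI on the left and wild type on the right. The Fos share is smallest in number 3 of each genotype.

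The spread between libraries of a genotype also set the genes apart. Among tested genes with a mean of at least 10 CPM, the median coefficient of variation was 4.47% in ASXL1-MT-KI and 5.66% in wild type libraries. Fos reached 43.4% in ASXL1-MT-KI and 50.3% in wild type, and Atf3 39.6% in ASXL1-MT-KI and 41.3% in wild type. Fosl2 differed between the genotypes in this, with 37.3% in ASXL1-MT-KI and 6.83% in wild type, a contrast that was not tested. Maff had 2.50% in ASXL1-MT-KI and 7.68% in wild type. Over the 6 libraries, which share the genotype and number structure, Fos correlated with Jun at 0.91 and with Maff at -0.04, and Junb correlated with Maff at 0.96 and with Fosl2 at 0.93 (Pearson, log2 CPM).

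Outside the family, the genes most like Fos over the 6 libraries, among 9005 with a mean of at least 10 CPM, were Ska1, Dusp1, Ncapd2, Diap3 and Ddx39 (Pearson correlation of log2 CPM 0.990 to 0.997). The measure ignores size. Ska1, a spindle gene, was at 20.6, 20.9 and 18.3 CPM in ASXL1-MT-KI libraries and 20.5, 20.3 and 17.6 CPM in wild type libraries. Dusp1 was at 347, 360 and 174 CPM in ASXL1-MT-KI libraries and 318, 321 and 155 CPM in wild type libraries, with number 3 shifted by -1.02 in ASXL1-MT-KI and -1.04 in wild type on the log2 scale. Genes most like Atf3 included Psip1, AI662270, Tcf12 and Cdk4 (0.993 to 0.995).

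Among bZIP genes that partner or compete with AP-1, 6 of 17 fell and none rose in edgeR, where 2 were higher at an unadjusted p under 0.05 (0 rose in DESeq2 and limma-voom). The median log2 fold change was -0.30. Mafk, a small MAF gene like Maff, fell to 99.7 ± 0.842 CPM in ASXL1-MT-KI, against 151 ± 3.88 CPM in wild type libraries (log2 fold change -0.59, adjusted p = 8.0e-05, edgeR). Mafg, the remaining small MAF gene, named after its values were seen, stood at 37.2 ± 2.34 CPM in ASXL1-MT-KI and 37.2 ± 3.50 CPM in wild type libraries (adjusted p = 0.992, edgeR). Crem, a cyclic AMP-responsive bZIP gene, fell to 5.28 ± 0.673 CPM in ASXL1-MT-KI, against 14.1 ± 1.54 CPM in wild type libraries (adjusted p = 0.000160, edgeR). Bach1, a repressor that pairs with small MAF proteins, fell by 0.54 on the log2 scale. With the replicate number as a block 7 of the 17 fell and 2 rose, and with numbers 1 and 2 only 8 fell and 0 rose. Beside the counts of this list and those below, 7.69% of all tested genes fell and 8.29% rose in edgeR. With the block 13.8% of all tested genes fell and 30.5% passed in either direction. With numbers 1 and 2 only 8.21% fell. The share of all tested genes that rose is not given for the block, for numbers 1 and 2 only or for fits with a library left out. Counts of rises in those fits thus have no like share beside them.

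Of 22 kinases and transcription factors upstream of AP-1, 6 fell and 1 rose, with a median of -0.10; the block gave 8 falls and 2 rises, and numbers 1 and 2 only gave 4 falls and 1 rise. Mef2d fell by 0.33, the SRF partner gene Elk4 by 0.56 and Mef2c by 0.62 on the log2 scale, and Mapk7, the ERK5 kinase gene, was higher by 0.30 (adjusted p = 0.0289, edgeR). The Mef2c call was lost with numbers 1 and 2 only (adjusted p = 0.122), and the Mapk7 call without ASXL1-MT-KI replicate 1 or 2 or wild type replicate 1 or 2 (adjusted p up to 0.129). Without wild type replicate 1 the falls numbered 3 and the rises 0. Rises also numbered 0 on leaving out ASXL1-MT-KI replicate 1, ASXL1-MT-KI replicate 2 or wild type replicate 2, and 2 with total counts or on leaving out wild type replicate 3. Srf, which drives Fos transcription through the CArG box, stood at 144 ± 14.5 CPM in ASXL1-MT-KI and 156 ± 0.595 CPM in wild type libraries (adjusted p = 0.326, edgeR); it was named after its values were seen.

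Of 11 genes that shorten the life of AP-1 proteins or transcripts, or lengthen it, 2 fell and 0 rose in edgeR (0 at an unadjusted p under 0.05, and 0 in DESeq2 and limma-voom), with a median of -0.11. Zfp36l2, which marks AU-rich mRNAs for decay, fell to 1164 ± 23.0 CPM in ASXL1-MT-KI, against 1608 ± 83.5 CPM in wild type libraries (log2 fold change -0.47, adjusted p = 0.000464, edgeR). Fbxw7, the ubiquitin ligase subunit that recognises JUN, fell by 0.36. Under the block 5 of the 11 fell and 1 rose, where 13.8% of all tested genes fell. With numbers 1 and 2 only 3 fell and 0 rose.

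Known targets of AP-1 from other cell types mostly fell: 10 of 17 fell and 2 rose, with a median of -0.48. The urokinase receptor gene Plaur fell to 38.7 ± 8.54 CPM in ASXL1-MT-KI, against 103 ± 3.07 CPM in wild type libraries (log2 fold change -1.42, adjusted p = 0.00107, edgeR). The chemokine gene Cxcl2 fell by 1.25 and the adhesion receptor gene Cd44 by 0.38 on the log2 scale. Ccnd1 rose by 1.31 and the urokinase gene Plau by 0.52, a call lost without ASXL1-MT-KI replicate 2 or 3 or wild type replicate 1 or 2 (adjusted p up to 0.154). Rises were 1 without ASXL1-MT-KI replicate 2 or wild type replicate 1 or 2, and 5 with the block, where 10 fell; with numbers 1 and 2 only 3 rose and 8 fell. Many of these genes answer to other factors too, such as NF-kB.

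Of 29 immediate early genes outside AP-1, 17 fell and none rose in edgeR (0 at an unadjusted p under 0.05, and 0 in DESeq2 and limma-voom), with a median of -0.52; 1 rose under the block, where 20 fell, or on leaving out ASXL1-MT-KI replicate 1, and with numbers 1 and 2 only 21 fell and 0 rose. Nr4a2, a nuclear receptor gene, fell by 1.56, Nfkbiz by 1.25 and Csrnp1 by 0.92 on the log2 scale. In number 3, 21 of the 29 were lower in ASXL1-MT-KI and 24 in wild type, with medians of -0.18 and -0.20. Egr1, named after its values were seen, did not follow Fos: its shift in number 3 was 0.20 in ASXL1-MT-KI and -0.12 in wild type. Of 12 heat shock genes none passed in edgeR, DESeq2 or limma-voom (0 higher and 2 lower at an unadjusted p under 0.05), while 2 fell with the block and 1 with numbers 1 and 2 only. On leaving out wild type replicate 3, 3 fell, and on leaving out wild type replicate 2, 1 rose.

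**Figure D5:**
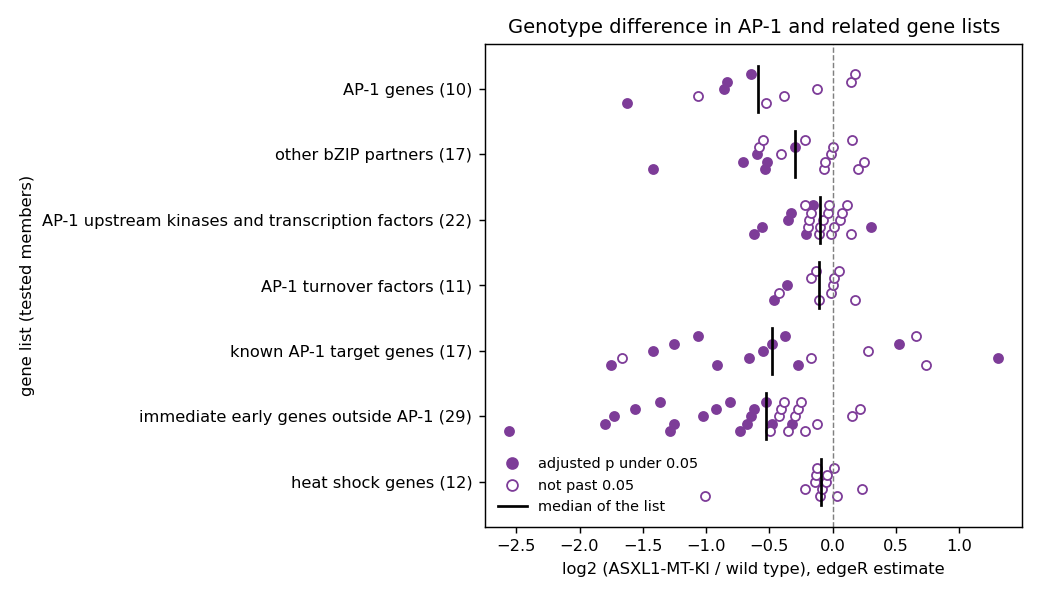
edgeR log2 ratio of ASXL1-MT-KI to wild type for each tested gene of the AP-1 and related lists, filled where the adjusted p is under 0.05, with the median of each list as a black line. Medians run from -0.59 for the AP-1 genes to -0.09 for the heat shock genes.

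Markers of cell types in or near the gate were summed in each library. Their counts stand beside 7.69% of all tested genes lower and 8.29% higher in edgeR. Under the block 13.8% of all tested genes were lower and 30.5% passed in either direction, and with numbers 1 and 2 only 8.21% were lower. The share of all tested genes that rose is not given for these fits, nor for those with a library left out. Counts of rises there thus have no like share beside them and cannot be read as a result about a list. Haem and red cell membrane markers summed to 1713 to 2167 CPM in ASXL1-MT-KI and 1192 to 1782 CPM in wild type libraries, and 4 of 19 rose, 17 under the block, 15 in libraries 1 and 2 alone and 1 on leaving out wild type replicate 1. Mast cell, basophil and eosinophil markers summed to 518 to 855 CPM in ASXL1-MT-KI and 840 to 920 CPM in wild type libraries, and none of 10 passed in edgeR (0 higher and 2 lower at an unadjusted p under 0.05; 2 fell in DESeq2, 3 in limma-voom, 3 under the block and 1 with numbers 1 and 2 only). Neutrophil granule markers summed to 19166 to 20333 CPM in ASXL1-MT-KI and 18671 to 20623 CPM in wild type, with 0 of 12 past the threshold in edgeR (1 higher at an unadjusted p under 0.05; 1 rose in DESeq2 and 0 passed in limma-voom); under the block 5 of the 12 rose, and with numbers 1 and 2 only 2 rose. Monocyte and macrophage markers summed to 1301 to 1457 CPM in ASXL1-MT-KI and 1258 to 1295 CPM in wild type, with 1 higher and 1 lower of 12, and 4 higher and 3 lower both under the block and with numbers 1 and 2 only. The rise, of Ly6c2, was lost without ASXL1-MT-KI replicate 1 or 2 or wild type replicate 1 (adjusted p up to 0.0868). Mature lymphoid markers summed to 166 to 214 CPM in ASXL1-MT-KI and 184 to 203 CPM in wild type, with 1 of 5, Cd79a, lower (adjusted p = 0.0598 without wild type replicate 1); under the block 2 were higher and 2 lower, and with numbers 1 and 2 only 0 were higher and 2 lower. Genes of G2 and M phase summed to 3040 to 3414 CPM in ASXL1-MT-KI and 2786 to 3335 CPM in wild type, and 0 of 13 passed in edgeR, DESeq2 or limma-voom (1 higher at an unadjusted p under 0.05), whereas under the block 5 of the 13 rose, and with numbers 1 and 2 only 1 rose. Among markers of c-Kit-positive progenitors, Myb rose, and Cd34 and Meis1 fell, with 2 rises under the block; the call of Myb ended without ASXL1-MT-KI replicate 1 or 3 or wild type replicate 1 or 2 (adjusted p up to 0.0782), and that of Meis1 without ASXL1-MT-KI replicate 2 (0.0542). The part of cell type shares in the AP-1 differences was not tested.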

How the data were processed

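RNA of LK cells was sequenced, per the labels' protocols, from 200 ng (NEBNext Ultra, a kit that keeps no strand; paired reads of 124 bp). HISAT2 2.0.4 and mm10 are named, per the submitters' processing notes. The counting tool, annotation and strand setting were not given in the sources used here. Deposited by the authors were raw counts per gene symbol for 6 libraries. Columns were matched to samples by genotype and number in their names.

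Genes were filtered with filterByExpr (minimum count 10), scaled by TMM and tested with edgeR 4.0.16 in R 4.3.3 (robust quasi-likelihood test, genotype as the only term, Benjamini-Hochberg adjustment over 13548 genes, threshold 0.05). Log2 values of single libraries are of CPM + 0.5; SE was taken as log2 fold change over the root of the F statistic. On simulated counts of 13548 genes, the test recovered 68.5% of changes of 1.5-fold, 84.1% at 2-fold and 95.3% at 4-fold, with 14 of 178 calls false. The changed genes numbered 73, 63 and 64, and the libraries were drawn with no effect of the library number. These rates therefore do not carry over to genes that moved with the number, such as Atf3.

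Same-numbered libraries deviated together from their group means (across genes, r = 0.307, 0.217 and 0.472, all over 0.1), so the number, which comes from the titles, was taken to pair them. ASXL1-MT-KI 1 with wild type 2 also passed 0.1 (r = 0.179), and the other differently numbered pairs had r of -0.38 to -0.00223. Deviations of the libraries of a genotype cancel out, so a shift shared by number 3 alone also tends to raise the correlations among numbers 1 and 2. Passing 0.1 is therefore no separate support for pairing numbers 1 and 2, which are less clearly paired than number 3. The pairing was inferred from the same data that the block was fitted to. Alternatives were a replicate block, DESeq2 size factors, total counts, DESeq2 1.42.0, limma-voom (limma 3.58.1), other filters, no robust estimation, each library left out, and numbers 1 and 2 only.

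The 10 AP-1 genes, the 13 other gene lists and the rule for named genes (all 10; up to 3 by p in each direction of a list; the 5 most like Fos and Atf3) were chosen with earlier results of these data known. Some genes that the rule names are not reported here. Coordinates and lengths are GENCODE M21 (GRCm38, which mm10 names) and promoters RefSeq GRCm38.p6. Figures were drawn with matplotlib 3.10.9.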

Additional observations from a re-analysis of the deposited data

How the results depend on the processing

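The number of genes past the threshold was 2165, and 4132 with the replicate number as a block, which kept 2152 of the 2165; it was 1128 to 2257 on leaving out 1 library (1388 with ASXL1-MT-KI replicate 1 left out, 1143 with ASXL1-MT-KI replicate 2 left out, 1128 with wild type replicate 1 left out). Of the AP-1 genes 4 fell, 2 to 4 on leaving out 1 library (2 without wild type replicate 1 or 2), 5 with the block and 6 with numbers 1 and 2 only; none rose in any of these edgeR fits, DESeq2 or limma-voom. Maff and Junb kept their call under every alternative run. Log2 fold changes of the calls that changed were as follows. With the replicate block, Fosl2 was at -1.68 and lost its call, while Jund at -0.54 and Atf3 at -1.05 gained one. Fosl1 lost its call with total counts (-0.78), DESeq2 (-0.84) and limma-voom (-0.83). Jund gained one in DESeq2 (-0.53), limma-voom (-0.54) and without robust estimation (-0.52). With numbers 1 and 2 only, Fosl2 (-1.45) lost its call, and Jun (-0.19), Jund (-0.47) and Atf3 (-1.07) gained one. That fit left out the libraries already named as low when the genes were chosen, so these gains are no independent support. On leaving out 1 library the range was -1.00 to -0.74 for Fosl1, -1.98 to -1.46 for Fosl2, -0.69 to -0.39 for Jund, and -0.22 to 0.45 for Fos, which turned negative without ASXL1-MT-KI replicate 2 (-0.13) or wild type replicate 3 (-0.22). The cause of these changes was not tested. Total counts moved the median of all genes by 0.05. Of 390 counts of list members under the alternatives, 315 were within 1.5 times the reported count. These include counts that were 0 in both, so the figure says little about lists with calls. Rises of haem and red cell membrane markers, for one, went from 4 to 17 with the block. Depth limits Fosl1, at 34 to 80 counts a library. The block changed no other AP-1 call.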
